A study of Mus musculus with 6 samples.

Results

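The peaks described here are the ATAC-seq peaks at genes of ubiquitin ligases, TRAF adaptors and their partners in regulatory T cells (Treg cells) with and without the transcription factor Bcl11b. ATAC-seq marks open chromatin through the sites where a transposase inserts adapters. A peak was taken when its midpoint lay in the body of a member gene, or lay between genes with a member as the nearest protein-coding gene within 100 kb. The 37 names of the list stand for 36 genes, since Roquin is the protein name of Rc3h1, which is listed as well. The rule found 302 of the 74440 peaks in the 2 deposited lists, 153 of 38258 in the WT list and 149 of 36182 in the KO list. All 36 genes had at least 1 peak in each list, and 2 of the peaks also lay in the body of another protein-coding gene. Of all 21896 protein-coding genes, 14661 had a peak by the same rule in at least 1 list.

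Both groups were C57BL/6 mice that carry Foxp3-IRES-YFP-Cre, so the controls also express Cre and YFP from the Foxp3 gene. The WT group had intact Bcl11b (w/w) and the KO group floxed Bcl11b (f/f), which Cre recombines in cells that express Foxp3. CD4+YFP+ cells were sorted from spleen and draining lymph nodes, with 3 samples per group and 100000 cells lysed per sample. The labels give neither age nor the deleted part of Bcl11b, and do not say whether each sample was a separate animal. Each group has 1 list of peak positions for its 3 samples together, with no read count or peak height. Depth per sample is therefore unknown, the spread between samples could not be measured, and nothing below was tested against it. In lists from bulk cells, fewer cells of a type and less signal per cell cannot be told apart. Of the marker genes checked for a peak within 1 kb of either gene end, Treg genes had one at 3 of 4 in both lists, with none at Foxp3. T cell genes had one at 2 of 4 in the WT list (none at Cd4 and Lck) and 3 of 4 in the KO list (none at Cd4), and B cell genes at 0 of 4 in both. One such peak was found in both lists at 1 of 2 CD8 T cell genes, 1 of 3 NK genes and 2 of 4 myeloid genes, with none at Cd8a, Ncr1, Klrb1c, Lyz2 and Csf1r. The part of other cells in the results was not tested.

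Ubiquitin ligases attach ubiquitin to target proteins, which marks them for degradation or changes their partners, and deubiquitinases remove it. In T cells these enzymes limit receptor signalling and set the lifetime of signalling proteins and transcription factors. TRAF proteins dock on TNF receptor family members and, with the cIAP ligases, pass the signal to the NF-kB and MAP kinase pathways. In Treg cells, Usp7 is known to stabilise the Foxp3 protein and Stub1 to promote its degradation. Roquin proteins and Regnase-1 bind and destabilise mRNAs of costimulatory receptors and cytokines.

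The start of a gene was read from RefSeq (GRCm38.p6, the coordinates of mm10), which gave 33 windows for 28 of the 36 genes, each from 250 bases before to 50 bases after a start. The table used gives gene ends but no exons, so positions inside a gene are not split into exon and intron. A peak without an overlap of at least 1 bp in the other list is named WT-only or KO-only, and genotype-specific in either case. The site may still have been open in the other genotype, below the threshold of its list. The following 4 windows are shown because they are the member windows that a genotype-specific peak covers in part. They run 5′ to 3′ on the strand of the gene, and capitals mark the bases under a peak of either list.
Rc3h2 (chr2:37422854-37423153, minus strand): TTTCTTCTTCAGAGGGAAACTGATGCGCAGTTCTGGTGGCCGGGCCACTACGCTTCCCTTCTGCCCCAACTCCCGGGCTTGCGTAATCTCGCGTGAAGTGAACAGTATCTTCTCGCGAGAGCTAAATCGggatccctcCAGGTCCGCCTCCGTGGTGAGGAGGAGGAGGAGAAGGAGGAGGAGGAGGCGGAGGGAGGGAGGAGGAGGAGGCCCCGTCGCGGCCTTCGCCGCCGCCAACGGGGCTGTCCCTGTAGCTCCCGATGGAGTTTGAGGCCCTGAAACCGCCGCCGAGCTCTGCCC
Zc3h12a (chr4:125127832-125128131, minus strand): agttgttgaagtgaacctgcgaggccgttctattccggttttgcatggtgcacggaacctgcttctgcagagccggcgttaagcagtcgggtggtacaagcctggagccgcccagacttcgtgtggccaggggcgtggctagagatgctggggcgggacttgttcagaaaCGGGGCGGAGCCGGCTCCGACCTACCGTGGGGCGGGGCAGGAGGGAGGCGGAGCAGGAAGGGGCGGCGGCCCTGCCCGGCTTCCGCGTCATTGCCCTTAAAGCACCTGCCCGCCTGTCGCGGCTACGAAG
Herc1 (chr9:66350200-66350499, plus strand): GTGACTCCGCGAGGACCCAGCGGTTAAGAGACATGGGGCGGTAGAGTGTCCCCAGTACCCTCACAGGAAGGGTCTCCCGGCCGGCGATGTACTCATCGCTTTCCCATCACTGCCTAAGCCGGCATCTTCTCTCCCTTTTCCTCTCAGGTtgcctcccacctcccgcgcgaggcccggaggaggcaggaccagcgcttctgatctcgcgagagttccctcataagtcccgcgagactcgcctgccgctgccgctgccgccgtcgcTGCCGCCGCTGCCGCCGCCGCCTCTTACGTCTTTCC
Nedd4 (chr9:72662081-72662380, plus strand): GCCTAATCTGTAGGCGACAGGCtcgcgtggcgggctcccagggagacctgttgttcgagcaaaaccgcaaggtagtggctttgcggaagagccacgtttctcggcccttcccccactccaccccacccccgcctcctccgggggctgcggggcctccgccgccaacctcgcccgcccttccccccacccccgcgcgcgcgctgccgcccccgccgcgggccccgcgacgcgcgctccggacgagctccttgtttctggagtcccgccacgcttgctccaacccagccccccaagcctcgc
The window of Mdm2, a member with one of the largest surpluses of KO-only peaks, and that of Ndfip2, the member with the largest surplus of WT-only peaks, are shown for comparison. Only shared peaks reach into them.
Mdm2 (chr10:117710709-117711008, minus strand): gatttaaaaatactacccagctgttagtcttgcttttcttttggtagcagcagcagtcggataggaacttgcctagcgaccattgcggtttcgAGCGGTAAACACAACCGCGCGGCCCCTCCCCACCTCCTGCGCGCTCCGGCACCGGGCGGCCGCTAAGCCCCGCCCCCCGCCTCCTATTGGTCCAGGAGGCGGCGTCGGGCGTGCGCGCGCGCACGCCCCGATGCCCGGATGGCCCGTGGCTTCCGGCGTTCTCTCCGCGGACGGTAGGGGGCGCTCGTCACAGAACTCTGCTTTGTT
Ndfip2 (chr14:105258373-105258672, plus strand): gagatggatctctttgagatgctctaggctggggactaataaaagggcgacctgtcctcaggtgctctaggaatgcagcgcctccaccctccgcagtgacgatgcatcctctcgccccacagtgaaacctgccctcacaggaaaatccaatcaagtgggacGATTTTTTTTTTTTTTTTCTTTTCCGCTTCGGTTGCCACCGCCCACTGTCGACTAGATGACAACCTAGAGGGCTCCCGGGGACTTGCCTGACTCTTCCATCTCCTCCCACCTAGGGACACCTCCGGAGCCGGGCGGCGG

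At 3 of the 4 starts with a genotype-specific peak, both lists held a peak and the called positions differed. In the Rc3h2 window the capitals before the lower-case stretch are the KO-only peak and those after it the WT-only peak. The WT-only peak of Rc3h2 (chr2:37422797-37423015) ran from -112 to 106 bp around the start and the KO-only peak (chr2:37423025-37423217) from -314 to -122 bp, with 9 bp between them. They stood at 3.32% and 3.81% of the rows of their lists, counted from the top. At Zc3h12a the capitals are the WT-only peak (chr4:125127743-125127961), which covers 130 bases of the window. The KO-only peak there (chr4:125127392-125127584) lay from 297 to 489 bp into the gene, 158 bp from the WT-only one, and they stood at 8.39% and 4.75%. At Herc1 the first capitals are a WT-only peak (chr9:66350130-66350348) and the last ones a KO-only peak (chr9:66350464-66350656), 115 bp apart. The WT-only peak there is no member by the rule, since its midpoint lies in the body of the neighbouring gene Gm30447, and the KO-only peak lies in both genes. At Nedd4 the 22 capitals are the edge of a WT-only peak (chr9:72661884-72662102) late in the list, at 86.1%, and the nearest KO peak was 1489 bp away.

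**Figure D1:**
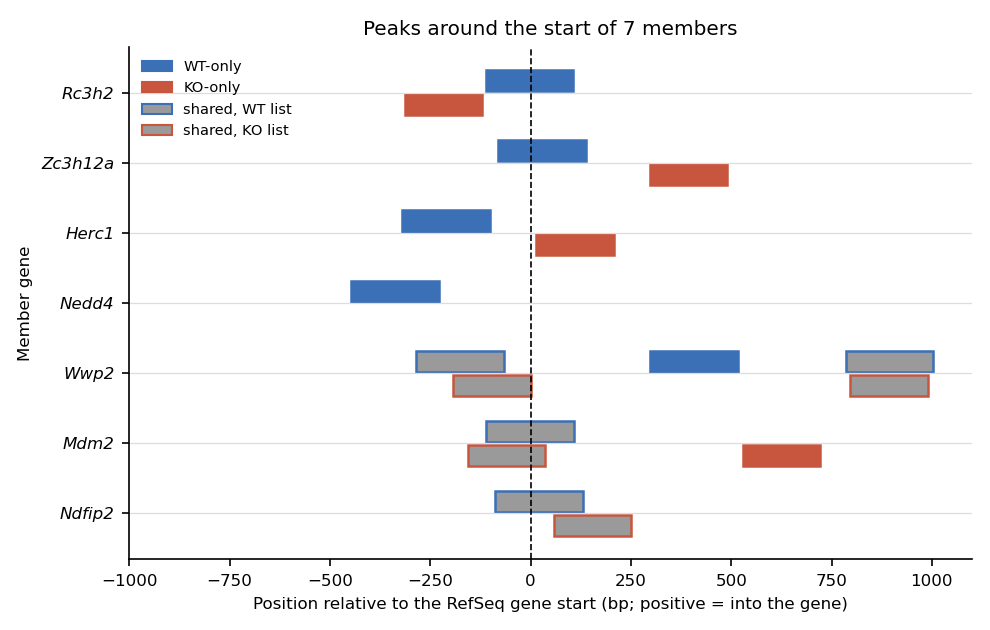
Peaks within 1 kb of the RefSeq start of 7 members, with position relative to the start in bp on the x axis and 1 row per gene, WT list above and KO list below each line. Blue and red bars are WT-only and KO-only peaks, and grey bars are shared peaks outlined by list. At Rc3h2, Zc3h12a and Herc1 a WT-only and a KO-only peak lie next to each other, 9, 158 and 115 bp apart, whereas Nedd4 has a WT-only peak alone.

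Most member starts were called in both lists. A peak of both lists reached into 20 of the 33 windows (60.6%), against 37.7% of the 21262 windows of all protein-coding genes. A genotype-specific peak reached into 4 (12.1%), against 5.36%. Both shares are over all windows, including those without any peak, which were 30.3% of member windows and 56.0% of all. A WT peak alone reached into 3 windows, those of Zc3h12a, Nedd4 and Ndfip2. At Ndfip2 the peaks were shared, and the KO peak (chr14:105258681-105258873) starts beyond the window. No peak reached into 10 windows, among them the 3 of Fbxw7 and those of Cul3, Traf1, Usp7, Vhl and Cul4b. At Cul3, Usp7 and Vhl the nearest peaks in both lists lay within 1 kb of the start, whereas at Cul4b they lay 11616 bp (WT) and 11566 bp (KO) into the gene. By the ends of the gene in place of its start, and counting only peaks assigned to the gene, 26 members had a peak within 1 kb in both lists and 8 in neither. Among those 8, Rnf128, Skp2, Usp4, Usp7 and Rc3h2 had peaks of both lists within 1 kb of a start that lies inside the gene body. Nedd4 had one in the WT list alone. At Herc1 only the KO peak was assigned to the gene, but the WT-only peak assigned to Gm30447 lay 211 bp before its start by midpoint, so both lists held a peak there. Over all genes with an assigned gene-end peak, 12.1% had it in one list alone.

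Over all members, 40 WT peaks were WT-only and 36 KO peaks were KO-only, with 113 shared peaks in each list. These counts are out of 153 WT and 149 KO peaks, of which 73.9% and 75.8% were shared. Of all peaks assigned to a gene, 28.4% of WT peaks were WT-only and 24.8% of KO peaks were KO-only, with 71.6% and 75.2% shared. The KO-only share of genotype-specific peaks was 47.4% (exact Clopper-Pearson 95% interval 35.8 to 59.2%, counting error only), and that of all assigned peaks 45.4% (44.7 to 46.1%). These shares lie near the background. No genotype-specific peak was assigned to 13 members, Wwp1, Rnf128, Stub1, Traf2, Traf4, Birc2, Cul4b, Vhl, Skp2, Cyld, Usp4, Usp9x and Rc3h1. That is 36.1% of members, against 42.9% of the 14661 genes with a peak. More WT-only than KO-only peaks were found at 8 members (22.2%, background 26.8%) and more KO-only peaks at 7 (19.4%, background 20.2%). Equal numbers, with at least 1 of each, were found at 8 members (22.2%, background 10.2%). A surplus of at least 2 peaks was found at 3 members in each direction (8.33%), against 8.04% of genes for WT-only and 5.20% for KO-only peaks. Members had a median of 3 peaks in each list, against 2 over all genes with a peak. The shares of genes given here are not adjusted for the number of peaks per gene. The median of KO-only minus WT-only peaks was 0 over the members and 0 over all genes with a peak.

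**Figure D2:**
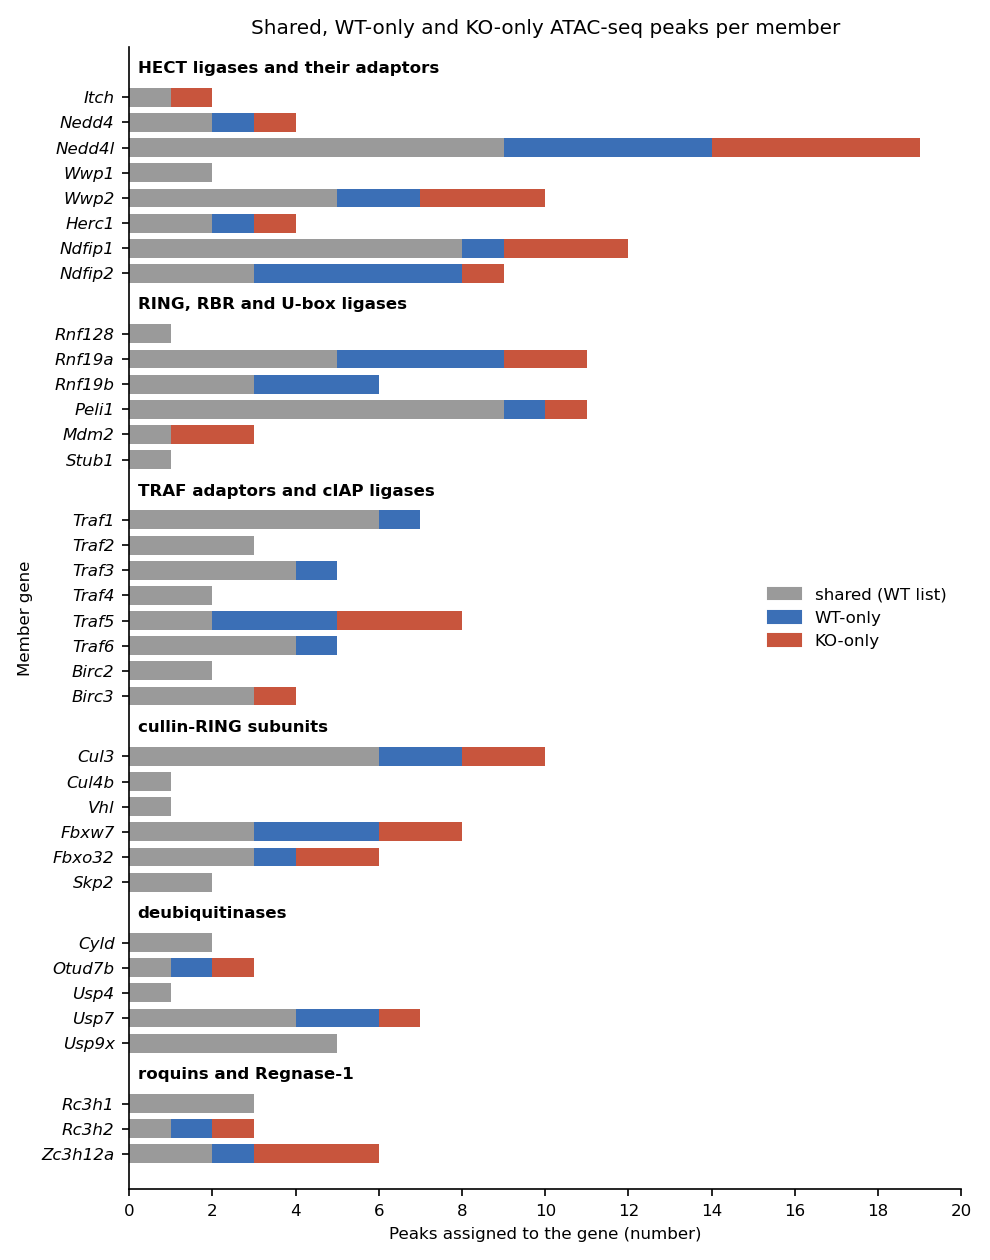
Number of peaks assigned to each of the 36 member genes (x axis), grouped by role, with shared peaks of the WT list in grey, WT-only peaks in blue and KO-only peaks in red. Nedd4l has the longest bar, with 5 WT-only and 5 KO-only peaks, Ndfip2 and Rnf19b have the largest surpluses of WT-only peaks, and 13 genes have grey bars alone.

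The HECT ligases, which carry ubiquitin on a catalytic cysteine before its transfer, and their adaptors had 15 WT-only and 15 KO-only peaks beside 32 shared ones over 8 members. Itch, a ligase whose loss in mice leads to inflammation driven by T helper cells, had 1 shared peak at its lower gene end (WT list, chr2:155133262-155133480) and 1 KO-only peak 2.70 kb inside the gene (chr2:155136084-155136276). Nedd4 had 1 WT-only and 1 KO-only peaks beside 2 shared ones, the KO-only one in the gene body (chr9:72736028-72736220). Nedd4l, a close relative and at 333 kb the longest member, had 5 WT-only and 5 KO-only peaks beside 9 shared ones, all in its body on chromosome 18. Its KO-only peaks lay at or below 500 bp from a WT peak in 3 of 5 cases and its WT-only peaks in 2 of 5, the closest pair (chr18:64954001-64954219 in WT, chr18:64954264-64954456 in KO) being 44 bp apart. Wwp1 had 2 shared peaks and no other. Wwp2 had 2 WT-only and 3 KO-only peaks beside 5 shared ones. A KO-only peak in the body of Wwp2 (chr8:107503045-107503237, at 32.2% of the list) lay 47.6 kb from the nearest WT peak. Herc1, a very large HECT protein, had 1 WT-only and 1 KO-only peak besides 2 shared ones.

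Ndfip1 and Ndfip2 are membrane proteins that bind and activate the Nedd4-family ligases, and their genes had surpluses in opposite directions. Ndfip2 (chr14:105258591-105309298) had 5 WT-only peaks, 1 KO-only peak and 3 shared ones. Those in the WT list alone stood late in the WT list, between 78.6% and 99.1% of its rows. Those before the gene lay 25.9 kb (chr14:105232538-105232756) and 18.2 kb (chr14:105240247-105240465) from it, and those after it 19.6 kb (chr14:105328745-105328963) and 88.5 kb (chr14:105397655-105397873). The other lay in the gene body (chr14:105287849-105288067), with the KO-only peak of the gene (chr14:105288619-105288811) close by. Ndfip1 (chr18:38418907-38465197) had 1 WT-only and 3 KO-only peaks beside 8 shared ones, and every genotype-specific one lay beyond its upper end. The WT-only peak was 18.4 kb away (chr18:38483522-38483740) and the KO-only peaks 19.5 kb (chr18:38484566-38484758), 29.8 kb (chr18:38494905-38495097) and 30.7 kb (chr18:38495813-38496005). At both genes the difference was 0 among peaks within 10 kb.

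The RING, RBR and U-box ligases had 8 WT-only and 5 KO-only peaks beside 20 shared ones over 6 members. Rnf19a and Rnf19b encode related RBR ligases, which join features of the RING and HECT classes. Rnf19b (chr4:129058144-129084526) had 3 WT-only and 0 KO-only peaks beside 3 shared ones. Its WT-only peaks lay 10.3 kb before the start (chr4:129047701-129047919), 1105 bp into the gene (chr4:129059140-129059358) and 1.70 kb before the other gene end (chr4:129082720-129082938). They stood at 79.0%, 43.9% and 93.5% of the WT list. Rnf19a (chr15:36239934-36283147) had 4 WT-only and 2 KO-only peaks beside 5 shared ones, all genotype-specific ones beyond its upper end. A WT-only peak (chr15:36303910-36304128) and a KO-only peak (chr15:36303697-36303889) there were 20 bp apart. The other WT-only peaks of Rnf19a lay 8.07 kb, 53.4 kb and 78.3 kb from the gene and the other KO-only peak 88.4 kb from it.

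Mdm2, the ligase that keeps p53 low, had 2 KO-only, 0 WT-only and 1 shared peak. Its KO-only peaks lay 625 bp into the gene (chr10:117710037-117710229) and 10.9 kb before it (chr10:117721594-117721786), and the shared peak covered the start. The first of them was 421 bp from that shared WT peak, so the difference was 1 when peaks up to 500 bp apart counted as shared. Peli1, a ligase that limits T cell activation, had 9 shared peaks and 1 of each genotype-specific kind beyond its upper end (WT-only chr11:21164426-21164644, KO-only chr11:21166751-21166943), 2.11 kb apart. Rnf128, known as GRAIL, a ligase of T cell anergy, had 1 shared peak, at its start on chromosome X (WT list, chrX:139610557-139610775). Stub1, a U-box ligase that works with chaperones, had 1 shared peak, at its start (WT list, chr17:25832783-25833001).

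**Figure D3:**
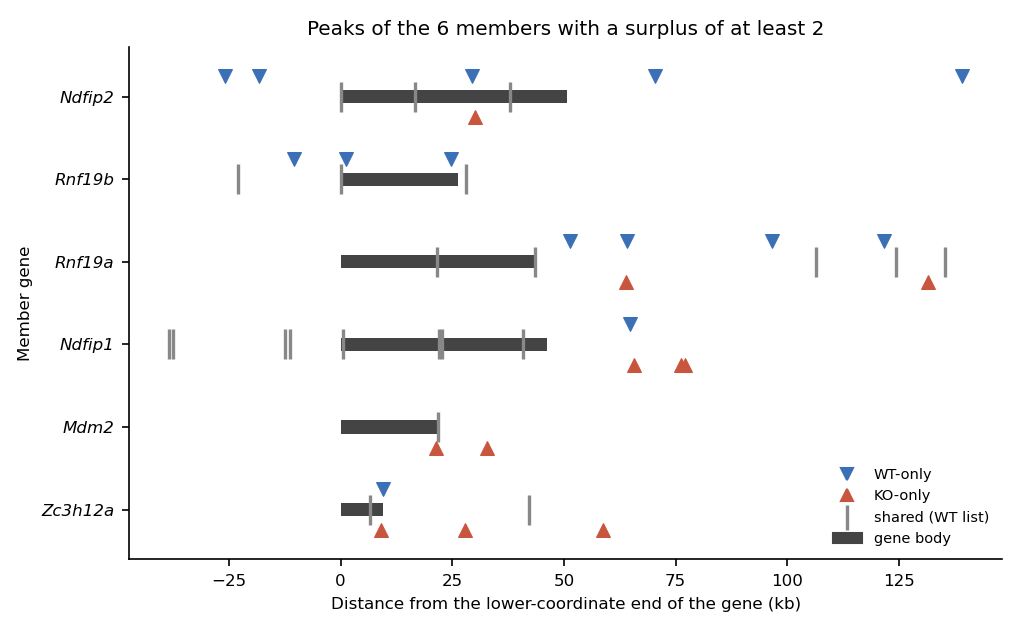
Peaks of the 6 members with a surplus of at least 2, by distance in kb from the lower-coordinate end of each gene (x axis), 1 row per gene. Dark bars are gene bodies, grey ticks shared peaks of the WT list, blue triangles WT-only and red triangles KO-only peaks. The WT-only peaks of Ndfip2 lie on both sides of the gene and inside it, and the genotype-specific peaks of Ndfip1 all lie beyond the upper end.

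The TRAF adaptors and cIAP ligases had 6 WT-only and 4 KO-only peaks beside 26 shared ones over 8 members, a KO-only share of 40.0% (12.2 to 73.8%). Traf1, an adaptor that NF-kB itself induces, had 6 shared peaks and 1 WT-only peak in its body (chr2:34945666-34945884), and the nearest peaks to its start had their midpoints at -1243 bp (WT) and -1274 bp (KO). Traf2, which recruits the cIAP ligases, had 3 shared peaks, 1 of them over its start (WT list, chr2:25546925-25547143). Traf3, which restrains the noncanonical NF-kB pathway, had 4 shared peaks and 1 WT-only peak 23.1 kb before the gene (chr12:111143152-111143370). Traf4 had 2 shared peaks. Traf5 (chr1:191997203-192092599) had 3 WT-only and 3 KO-only peaks beside 2 shared ones. A WT-only and a KO-only peak of Traf5 were 133 bp apart, 5.77 kb after the start (chr1:192086716-192086934 in WT, chr1:192086390-192086582 in KO). Traf6, a ligase of IL-1 and Toll-like receptor signalling, had 4 shared peaks and 1 WT-only peak (chr2:101698852-101699070). Birc2 and Birc3, the neighbouring genes of cIAP1 and cIAP2, had 2 and 3 shared peaks, and Birc3 had 1 KO-only peak in its body (chr9:7862930-7863122). The shared peaks at their starts stood near the top of both lists, at 1.03% (WT) and 0.500% (KO) for Birc2 and at 0.308% and 0.252% for Birc3.

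The cullin-RING genes encode scaffolds and the subunits that choose their targets, and had 6 WT-only and 6 KO-only peaks beside 16 shared ones over 6 members. Cul3, a scaffold that works with BTB proteins, had 2 WT-only and 2 KO-only peaks beside 6 shared ones. Its genotype-specific peaks lay 21.9 to 69.4 kb before the start, with 1 pair (chr1:80389743-80389961 in WT, chr1:80389444-80389636 in KO) 106 bp apart. Fbxw7, a subunit that recognises phosphorylated proteins such as Myc, had 3 WT-only and 2 KO-only peaks beside 3 shared ones. Its shared peak at 1.76% of the WT list and 0.959% of the KO list lay 528 bp beyond the lower gene end (WT list, chr3:84814353-84814571). Fbxo32, which encodes an F-box protein, had 1 WT-only and 2 KO-only peaks beside 3 shared ones, with a KO-only peak 696 bp beyond its lower gene end (chr15:58175087-58175279). Cul4b, Vhl, which targets hypoxia-inducible factors, and Skp2, which targets cell cycle inhibitors, had 1, 1 and 2 shared peaks.

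The deubiquitinase genes had 3 WT-only and 2 KO-only peaks beside 13 shared ones over 5 members. Usp7 had 2 WT-only and 1 KO-only peaks beside 4 shared ones, and beyond its upper end a WT-only and a KO-only peak were 48 bp apart (chr16:8768998-8769216 in WT, chr16:8769265-8769457 in KO). Otud7b had 1 shared peak at its lower gene end, a KO-only peak 925 bp inside that end (chr3:96105333-96105525) and a WT-only peak 239 bp beyond the other end (chr3:96161259-96161477). Cyld, which removes linear and K63-linked chains and limits NF-kB signalling, had 2 shared peaks, and the one at its start stood at 1.74% (WT) and 1.11% (KO). Usp9x had 5 shared peaks and Usp4 1.

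The roquin and Regnase-1 genes had 2 WT-only and 4 KO-only peaks beside 6 shared ones over 3 members, a KO-only share of 66.7% with an interval of 22.3 to 95.7%. Rc3h1, encoding Roquin-1, had 3 shared peaks and no other, the one at its start standing at 4.70% of the WT list and 7.23% of the KO list. Rc3h2, encoding Roquin-2, had the pair at its start shown above and 1 shared peak. Zc3h12a, encoding the RNase Regnase-1 (chr4:125118414-125127881), had 1 WT-only and 3 KO-only peaks beside 2 shared ones. Besides the pair at its start, it had KO-only peaks 18.4 kb (chr4:125146222-125146414) and 49.2 kb (chr4:125177012-125177204) before the start. The more distant one stood at 6.75% of the KO list, with the nearest WT peak 16.3 kb away.

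Some genotype-specific peaks of the members had a near neighbour in the other list. The shares over all assigned genotype-specific peaks lay inside the intervals of the members. A KO peak lay within 500 bp of 10 of the 40 WT-only peaks (interval 12.7 to 41.2%), against 20.7% of all WT-only peaks assigned to a gene. A WT peak lay within 500 bp of 13 of the 36 KO-only peaks (36.1%, 20.8 to 53.8%), against 28.8%. Of those 10 WT-only peaks, 9 had a KO-only peak as the nearest one, at gaps of 9 to 158 bp, at Rc3h2, Rnf19a, Nedd4l, Usp7, Cul3, Traf5, Wwp2 and Zc3h12a. The peaks themselves are 219 bp (WT) and 193 bp (KO) wide, so midpoints in these pairs lay 215 to 364 bp apart.

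The order of rows in the lists is not explained by the labels. It is used here as a place, in percent of rows from the top, and not as a measured height. Of the members' KO-only peaks, 15 of 36 (41.7%, 25.5 to 59.2%) stood in the first 50% of the list, against 26.8% of all assigned KO-only peaks. For WT-only peaks the number was 9 of 40 (22.5%, 10.8 to 38.5%), against 18.5%. With a gap of more than 500 bp to the other list as a further condition, 6 KO-only (16.7%, background 14.3%) and 4 of the 40 WT-only peaks (background 9.09%) were left. The KO-only ones were those of Zc3h12a at 49.2 kb and of Wwp2 described above and one each at Peli1, Rnf19a, Ndfip1 and Nedd4l. The WT-only ones were at Peli1, Nedd4l, Rnf19a and Rnf19b.

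Shared peaks of the members had similar places in both lists. Over 113 pairs the KO place minus the WT place had a median of 1.39 percentage points (middle 50% of pairs from -3.69 to 10.1), against 2.55 over all 25840 assigned pairs. Spearman's rho between the places was 0.875 for the members and 0.882 for all, as a description across peaks of the same lists. A difference of at least 20 points was found for 21 pairs (18.6%, background 15.9%). Of the member pairs, 10 stood that much earlier in the KO list (8.85%, background 5.58%) and 11 in the WT list (9.73%, background 10.3%). At Wwp2, 4 of 5 shared peaks stood earlier in the KO list, among them a peak with its WT midpoint 894 bp after the start at 42.5% (WT) and 12.7% (KO) and one 19.0 kb after it at 95.2% and 62.1%. At Rnf19b the peak 22.9 kb before the start stood at 31.4% and 7.18%. At Traf1 the peak 3.52 kb into the gene stood at 22.3% and 6.16%, and 5 of 6 shared peaks there stood earlier in the KO list. In the other direction, a peak in the body of Herc1 (WT list, chr9:66492411-66492629) stood at 32.4% and 82.2%, one in Wwp1 at 44.1% and 88.5%, and one 57.3 kb before Peli1 at 56.3% and 93.7%. All 5 shared peaks of Rnf19a and all 4 of Traf6 stood earlier in the WT list, the direction of the median over all assigned pairs. Peaks of 1 gene share a locus and are not independent.

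**Figure D4:**
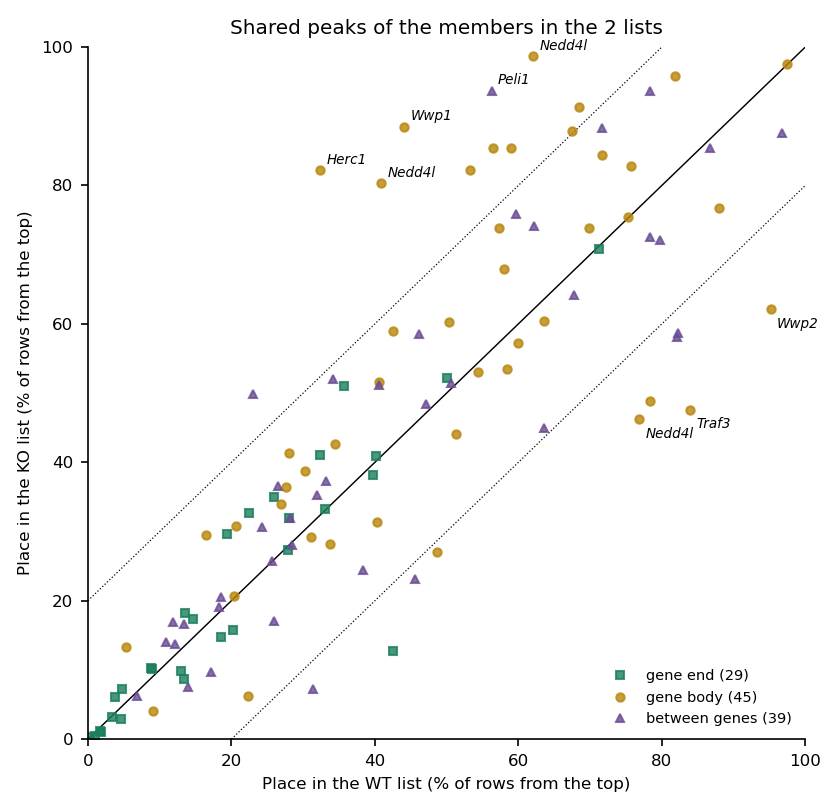
Place of the 113 shared peaks of the members in the WT list (x axis) and in the KO list (y axis), in percent of rows from the top, with symbols by location. The solid line marks equal places and the dotted lines 20 points of difference, and peaks at least 30 points apart carry the gene name. Shared peaks at gene ends lie within 20 points of the line except one of Wwp2 at 42.5% and 12.7%.

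The members' peaks were also divided by their distance from the gene ends. Within 1 kb of either end of the gene lay 4 of 40 WT-only peaks (interval 2.79 to 23.7%), 5 of 36 KO-only peaks (13.9%, 4.67 to 29.5%) and 29 of 113 shared peaks (25.7%, 17.9 to 34.7%). Over all assigned peaks the shares were 13.9%, 17.7% and 35.4%. Starts inside a gene body are not gene ends here, so the pair at the start of Rc3h2 counts among gene bodies. Of the members' shared peaks 39.8% lay in gene bodies and 34.5% between genes, against 37.4% and 27.2% of all shared WT peaks. With a gene-end window of 2 kb the members' shares were 22.5% for WT-only, 19.4% for KO-only and 31.0% for shared peaks, so the order of WT-only and KO-only turned. The intervals of the member classes overlap, peaks of 1 gene are not independent, and none of these differences was tested.

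The start windows of the members were searched on both strands for the letters of 11 known motifs, none of which contains another. A match describes letters and shows no binding. The GC box of SP and KLF factors (GGGCGG) stood in 25 of the 33 member windows (75.8%), against 46.2% of all protein-coding windows and 70.3% of those that a peak of both lists reaches. Member windows were also richer in G and C, with a median GC content of 64.0% against 56.3% for all, and the part of this in the GC box share was not tested. The core of the ETS family (CCGGAA) stood in 27.3% of member windows, against 18.7% of all windows and 35.5% of those reached by both lists. Also at 27.3% of member windows stood the NF-Y box (CCAAT), which was in 38.2% of all windows and in 42.4% of those reached by both lists. The core that RUNX factors bind (TGTGGT) stood in 18.2% of member windows, 15.0% of all windows and 966 of the 8021 windows reached by both lists. The shares of the remaining motifs rest on few member windows each, at most 8. The element of hypoxia-inducible factors (ACGTG), which Vhl targets, stood in 24.2% of member windows, 20.9% of all windows and 28.5% of those reached by both lists. The AP-1 element (TGANTCA, with N for any base) stood in 6.06% of member windows, 6.99% of all windows and 3.94% of those reached by both lists. The cyclic AMP response element (TGACGTCA) stood in 3.03%, 2.23% and 4.09% of these windows, in the same order. The letters of GATA factors (AGATAA) stood in 3.03% of member windows, 9.65% of all windows and 4.79% of those reached by both lists. NRF1 matches stood in 6.06% of member windows, 6.38% of all and 13.6% of those reached by both lists. NF-kB matches stood in 6.06% of member windows, in 2561 of all 21262 windows and in 13.5% of those reached by both lists. The p53 half-site stood in 15.2% of member windows, which is 5 windows, against 7.37% of all and 6.08% of those reached by both lists. In the Zc3h12a window shown above, 4 GC box matches on the printed strand lie between -100 and -15 bp, in or just before the capitals. The Mdm2 window has a p53 half-site match (gaacttgcct) from -186 to -177 bp, outside the capitals, and an NF-Y match inside them. Half-site matches also stand in the Ndfip2 window, from -10 to -1 bp, and in the Zc3h12a window, from -95 to -86 bp.

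Other genes of the ubiquitin system, 90 genes in 5 lists, had 69 WT-only and 56 KO-only peaks beside 200 shared ones, a KO-only share of 44.8% (35.9 to 54.0%), near that of all assigned peaks. The WT-only number was the higher one at 22 of these 90 genes and the KO-only number at 18. Over all genes with a peak, the WT-only number was higher at 26.8% and the KO-only number at 20.2%. Some of the 90 genes, such as Ddb1 and Nedd8, had none of the peaks counted here, so the bases differ. Other T cell ligases had 25 WT-only and 24 KO-only peaks over 18 genes, with 4 WT-only and 1 KO-only peaks at Xiap and 4 and 2 at Cblb, a ligase that raises the threshold of T cell activation. In the opposite direction Smurf2 had 0 and 2, and Peli2 2 and 4. Cullin-RING and SCF subunits had 11 and 5 over 16 genes, with 3 and 1 at Fbxw11 and 2 and 0 at Klhl6. Linear ubiquitin and NF-kB adaptor genes had 17 and 14 over 22 genes. Among them Tank, which binds TRAF proteins, had 7 WT-only and 1 KO-only peaks, Tnfaip3, encoding the NF-kB inhibitor A20, had 3 and 1, and Tab2 had 0 and 2. Further deubiquitinases had 10 and 7 over 18 genes, with 3 and 1 at Usp10, 2 and 0 at Uchl5 and 0 and 2 at Usp48. E1 and E2 enzymes and ubiquitin genes had 6 and 6 over 16 genes, with no surplus of at least 2 peaks at any of them. The median difference was 0 in each of the 5 lists.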

How the data were processed

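Open chromatin was measured by ATAC-seq in 6 samples, 3 WT and 3 KO. Build mm10, the aligner HISAT2 2.1.0 and the peak tool suite HOMER 4.10.1 are named per the submitters' processing notes, next to SAMtools 1.3, Trim Galore 0.4.2, FastQC, deepTools and cutadapt 1.12. For the calling threshold, any read shift and how replicates were merged, the entry is: not given in the sources used here. The authors deposited positions with a score column that holds 1 throughout and so gives no peak height. With no counts per sample, no test was made.

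The following were computed with scipy 1.17.1, pandas 2.3.3, numpy 2.4.6 and matplotlib 3.10.9 under Python 3.11.15: overlap of at least 1 bp, assignment to every protein-coding gene whose body holds the midpoint or else the nearest within 100 kb, and exact 95% intervals for counting error. Assigned were 94.3% of WT and 95.0% of KO peaks. RefSeq GRCm38.p6 gave the genes and start windows, and 8 members have no window. Beyond the start windows no genome sequence was used, so peaks are shown in sequence only where they reach into a printed window. The code was tested on simulated data (800 peaks against bedtools 2.31.1, 0 differences). The nearest gene need not be the one a site regulates. Members and lists were chosen with earlier results of these data known. By the naming rule, members with a difference of at least 2 peaks or a peak at a gene end in only 1 list are described with positions, and all others by counts and selected positions. In other lists up to 2 genes per direction are named, ties by list order. Alternatives were other overlap rules, the first 50% of each list, other assignments, a 2 kb gene-end window, leaving out Nedd4l and a shortened WT list.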

Additional observations from a re-analysis of the deposited data

How the results depend on the processing

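Under the alternatives, 57 of 68 summary values stayed within 1.5 times the main count or within the 95% interval of the main share, and the other 11 are given next. Keeping only the first 50% of rows left 9 WT-only and 15 KO-only peaks beside 72 shared ones, and the KO-only share was 62.5% (40.6 to 81.2%, all assigned peaks 54.6%). There 0 members had a surplus of at least 2 in either direction, and 37.5% of shared peaks lay at gene ends. Within 10 kb of the gene 25 WT-only peaks were left, with a surplus of at least 2 WT-only peaks at 1 member and of KO-only peaks at 0. With peaks up to 500 bp apart counted as shared, 23 KO-only peaks were left. By construction, each of these 3 settings leaves fewer peaks or fewer genotype-specific ones. Shares at gene ends rest on 4 WT-only and 5 KO-only peaks and moved by over 1.5 times inside those intervals. The WT-only share of 4 in 40 became 22.5% with a 2 kb window, 4 in 25 within 10 kb and 6.67% with the 500 bp gap, and the KO-only share went from 13.9% to 8.70% with that gap. At 2 kb the KO-only share was 19.4%, below the WT-only one. At the 6 members with a surplus of at least 2, no alternative turned the direction, and the difference was 0 in the first 50% at Ndfip2 and Rnf19a and within 10 kb at Ndfip1, Ndfip2 and Zc3h12a. No paired analysis was possible because each group has 1 peak list for its 3 samples. The lists carry no depth, so a peak missing from one list may lie below its threshold.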
